A study of Mus musculus with 146 samples.

Results

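The mouse mitochondrial genome encodes 37 genes, and all 37 of them were present, by their mt- symbols, among the 52605 gene symbols of the expression tables. They comprised 13 protein genes, 2 ribosomal RNA (rRNA) genes and 22 transfer RNA (tRNA) genes. The tables described 146 single cells picked by mouth pipette from the digested ovaries of newborn C57/BL6J female pups, labelled as day 0.5 and taken from a single litter, with 5 ovaries pooled and no treatment. Germ cells had been told from somatic cells by their size, and cDNAs positive for Foxl2, a pregranulosa marker, were discarded before sequencing. Single-cell cDNA had been primed with oligo(dT), amplified by the Smart-seq2 protocol and tagmented, so the reads carry no strand. Because no label ties a cell to an animal, all cells counted as 1 sample, and every comparison below is a description of these cells with no test. All cells but 1 had at least 1 TPM (transcript level per effective length, scaled to a fixed total per cell) of Ddx4, the germ cell RNA helicase known as VASA, and were used. The exception had a Ddx4 value of 0 and was left out, and counts of cells below are out of the others.

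The 146 tables did not come from as many cells. In 7 pairs of tables the log2 reads of 16473 nuclear genes had a Pearson r of 0.981 to 0.993, where no other pair reached more than 0.761, so each of these pairs was counted as 1 cell, with TPM averaged and reads summed. All of these cells were later placed in cluster 2. Over the pairs, the reads per kb of most mitochondrial protein and rRNA genes differed by under 0.3 log2 between the 2 tables. The exceptions were mt-Nd4l, with log2 differences of -0.96 to 1.09, and mt-Atp8, which was 2.25 to 2.93 higher in the second table of 5 pairs and within -0.10 to 0.06 in the other 2. The libraries also differed along their numbers in the labels. Split after seeing the data into the first 76 numbers, the next 26 and the rest, they form 3 runs with 75, 26 and 37 cells. The median share of reads on spike-in RNA was 0.548%, 0.286% and 0.297% in these runs, and the median of rRNA reads per protein-gene read 0.13, 0.15 and 0.41. The labels do not say what the numbers stand for. Whether the runs differ in preparation was not tested, and values within runs are given beside the main cluster results.

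The mitochondrial genome is a small circle whose strands are called heavy and light by their base content. Each strand is transcribed as a long precursor, and the tRNAs that lie between the other genes are cut out of it, which frees the messenger RNAs and rRNAs. The protein genes encode core subunits of the respiratory chain and of the ATP synthase, while every other subunit, and all proteins that transcribe and translate the mitochondrial genome, come from the nucleus. Oocytes are known for passing their mitochondria to the next generation, and newborn germ cells gather them in the Balbiani body while follicles form.

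The annotated genes are packed so tightly that several share bases, which matters for how reads can be assigned. All coordinates are those of GRCm38 (mm10) in GENCODE M21, whose lengths matched the deposited lengths for 37 of 37 genes. Sequences are given 5′ to 3′ as transcribed. The ATP synthase genes mt-Atp8 (chrM:7766-7969, heavy strand) and mt-Atp6 (chrM:7927-8607) share 43 bases, shown in capitals at the end of mt-Atp8.
mt-Atp8: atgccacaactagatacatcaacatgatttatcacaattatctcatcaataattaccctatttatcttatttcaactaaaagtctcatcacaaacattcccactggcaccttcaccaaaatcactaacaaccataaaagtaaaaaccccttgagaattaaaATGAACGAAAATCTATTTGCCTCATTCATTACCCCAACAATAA
The last 60 bases of mt-Nd4l (chrM:10114-10173) run into mt-Nd4 by 7 bases, again in capitals.
mt-Nd4l: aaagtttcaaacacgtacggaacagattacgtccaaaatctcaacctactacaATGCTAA
The ends of mt-Nd5 (heavy strand, chrM:13506-13565 shown) and mt-Nd6 (light strand, chrM:13552-13611 shown) face each other and are complementary over 14 bases, in capitals.
mt-Nd5: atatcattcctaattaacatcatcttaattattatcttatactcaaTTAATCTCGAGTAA
mt-Nd6: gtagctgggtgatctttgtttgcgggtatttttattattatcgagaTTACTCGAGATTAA
Of the protein genes, mt-Co3, mt-Nd4 and mt-Cytb have annotated lengths that leave 1 base beyond the last whole codon, shown in capitals below. Their stop codon is known to be completed by the poly(A) tail, the same tail that oligo(dT) primes on.
mt-Co3: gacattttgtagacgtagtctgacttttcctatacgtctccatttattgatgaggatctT
mt-Nd4: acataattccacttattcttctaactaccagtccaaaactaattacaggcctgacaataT
mt-Cytb: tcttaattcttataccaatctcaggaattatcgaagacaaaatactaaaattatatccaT

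Mitochondrial genes took a median of 6.30% of the reads assigned to genes, from 0.214% in the lowest cell to 25.8% in the highest, over cells with 4837063 to 33117438 assigned reads. Pooled over cells, protein genes held 80.9% of the mitochondrial reads and rRNA genes 19.1%, while the 22 tRNA genes together held 0.00449%. These shares describe polyadenylated RNA that was primed with oligo(dT), so the rRNA and tRNA shares are not the shares of those molecules in the cell.

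Per kb of full gene length the protein genes were far apart, and the 2 ATP synthase subunits stood near opposite ends. mt-Atp6, which encodes subunit a of the proton channel, was highest of the 13 in all cells but 1 by TPM and in all but 2 by RPKM, the reads per kb of full gene length scaled to the assigned reads of the cell. Its TPM ran from 5380 in the lowest cell through a median of 30996 to 99948. Its mean of 34126 TPM (SD over cells 18247) was 36.9% of the summed protein-gene TPM on average over cells. This share varied least of all 13, with a coefficient of variation of 13.7% across cells.

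mt-Atp8, the partner subunit that shares its end with mt-Atp6, had 174 TPM in the lowest cell, a median of 1599 and 34366 in the highest. Per kb of full gene length it ranked 11 of 13, with a mean of 211 RPKM against 22424 for mt-Atp6. By TPM it ranked 9 of 13. The 2 scales differ because TPM divides by an effective length, which for the 204 bases of mt-Atp8 was only 11 to 44 bases. Because mt-Atp8 is so short and shares its end with mt-Atp6, these values do not show that the 2 differ in RNA level. Its share of protein-gene TPM was also the most variable, with a coefficient of variation of 79.2%. The run of the library moved with it, since the median share was 1.14% in the first run, 3.96% in the second and 3.07% in the third. The repeated tables differed in this gene by more than any other mitochondrial protein gene, as given above. The pairs with a much higher second table all had their first table in the first run, and the remaining pairs in the third. Its variation between cells therefore cannot be told apart from that between libraries.

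The catalytic core of complex IV, cytochrome c oxidase, comes from mt-Co1, mt-Co2 and mt-Co3. mt-Co1 ranged from 97.8 TPM through a median of 11107 to 35310, mt-Co2 from 356 through 6650 to 25860, and mt-Co3 from 177 through 4534 to 22916. Per kb, mt-Co1 ranked 2 of 13, with a mean of 9477 RPKM, mt-Co2 ranked 5 with 5073 and mt-Co3 ranked 6 with 3814. mt-Cytb, the only mitochondrial subunit of complex III, ranged from 4.89 TPM through a median of 8374 to 34387. It ranked 4 of 13 per kb, with a mean of 7363 RPKM.

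Complex I, NADH dehydrogenase, takes 7 of its subunits from the mitochondrial genome, and their levels were far apart. mt-Nd1 was highest, from 244 TPM through a median of 10477 to 43032. mt-Nd4 had a median of 2974 TPM, and the remaining full-length genes lay close together, with medians of 2126 for mt-Nd6, 1556 for mt-Nd2 and 1144 for mt-Nd5. The 2 short genes were lowest. mt-Nd3 had a median of 354 TPM and at least 1 read in all cells but 5, and mt-Nd4l a median of 402 TPM with at least 1 read in all cells but 3. Per kb of gene length mt-Nd1 ranked 3 of 13, mt-Nd4l last and mt-Nd3 just above it.

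mt-Nd6 is the only protein gene of the light strand. Its mean of 2721 TPM lay 0.65 log2 below the median of the means of the 12 heavy-strand genes, and it outranked mt-Nd5, mt-Atp8, mt-Nd3 and mt-Nd4l on the heavy strand both by TPM and per kb. Since reads carry no strand, RNA copied from the opposite strand of this stretch would be counted with mt-Nd6. Over the 12 heavy-strand protein genes, distance along the map did not order the levels, with a Spearman rho of -0.34 between start position and mean reads per kb. Over all 13, rho with gene length was 0.46 and with the percentage of A bases -0.28. These are descriptions over few genes.

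**Figure D1:**
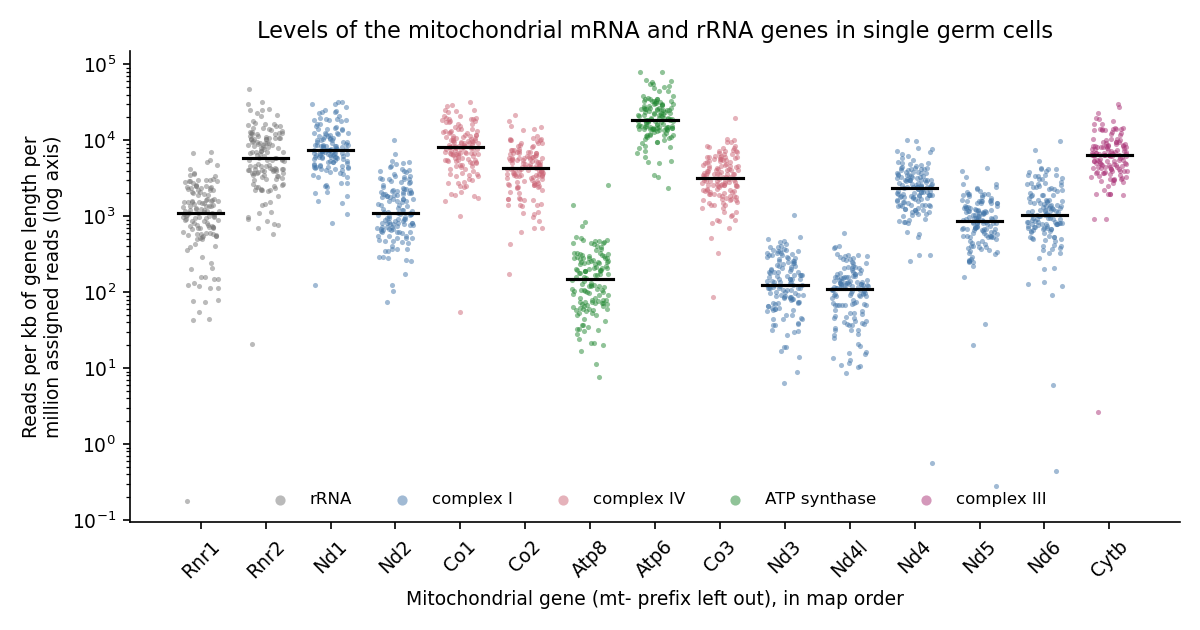
RPKM (reads per kb of full gene length, scaled to the assigned reads of the cell; log axis) for the 13 protein and 2 rRNA genes in map order, 1 point per cell with the median as a bar, coloured by the complex each gene belongs to. Cells with 0 reads, 5 for mt-Nd3 and 3 for mt-Nd4l, are not drawn. mt-Atp6 has the highest median (18715), mt-Nd4l and mt-Nd3 the lowest.

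The 2 rRNAs form the core of the mitochondrial ribosome. mt-Rnr2, the 16S rRNA of the large subunit, had 36 TPM in the lowest cell, a median of 8034 and 53282 in the highest. mt-Rnr1, the 12S rRNA of the small subunit, ran from 0.36 TPM through 1706 to 7860. mt-Rnr2 took a median of 90.3% of their joint reads, with a range of 69.5% to 99.5%. Per effective length, the median TPM ratio of mt-Rnr2 to mt-Rnr1 was 4.93. The 2 rRNAs varied together more closely than almost any other pair, with a Spearman rho of 0.86 across cells and of 0.86, 0.85 and 0.77 within the runs.

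Mature tRNAs are short, carry no poly(A) tail and are shorter than the tagmented fragments, and they were almost absent: 4613 reads fell on 22 genes over all cells. These reads were not spread evenly. The 8 light-strand tRNA genes held 91.6% of them, although 14 genes lie on the heavy strand, and 8 of the 9 tRNA genes with the most reads were on the light strand. In all cells but 4 the light-strand tRNA genes had more reads than the heavy-strand genes. In 1 of these they had fewer, and in 3 the numbers were equal. The leading genes were mt-Ts1 (serine, 54.5% of all tRNA reads), mt-Tq (glutamine), mt-Ta (alanine), mt-Te (glutamic acid) and mt-Tp (proline). The first 4 are printed because they carry most of the signal, with bases shared with the oppositely oriented neighbour (mt-Co1 for mt-Ts1, mt-Ti for mt-Tq) in capitals.
mt-Ts1 (chrM:6870-6938): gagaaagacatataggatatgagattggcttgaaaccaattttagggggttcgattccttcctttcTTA
mt-Tq (chrM:3772-3842): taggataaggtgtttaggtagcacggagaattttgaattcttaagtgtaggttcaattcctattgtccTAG
mt-Ta (chrM:5018-5086): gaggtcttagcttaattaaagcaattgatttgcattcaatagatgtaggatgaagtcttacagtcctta
mt-Te (chrM:14071-14139): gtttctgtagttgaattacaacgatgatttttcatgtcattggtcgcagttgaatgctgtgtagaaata
A pair of heavy-strand tRNAs is printed for contrast, since no read fell on them in any cell used: mt-Tf (phenylalanine), the first gene of the map, and mt-Ts2 (serine), whose last base is shared with mt-Tl2.
mt-Tf (chrM:1-68): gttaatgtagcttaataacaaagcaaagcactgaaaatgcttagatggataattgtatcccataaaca
mt-Ts2 (chrM:11613-11671): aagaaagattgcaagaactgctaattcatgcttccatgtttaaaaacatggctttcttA

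At least 1 read of mt-Ts1 was found in 94.9% of cells, all but 7, with an exact 95% interval of 89.8% to 97.9%. mt-Tq followed with 71.7% (interval 63.5% to 79.1%), mt-Te was found in 87 cells, mt-Ta in 58 and mt-Tp in 41. The other light-strand genes, mt-Tn, mt-Tc and mt-Ty, had a read in 50, 46 and 34 cells. The most often detected heavy-strand tRNA was mt-Tw (tryptophan), in 45 cells (32.6%, interval 24.9% to 41.1%), which ranked between mt-Tp and mt-Tn by total reads. The heavy-strand genes mt-Tl1, mt-Ti, mt-Tm and mt-Td were found in 21 to 35 cells, and mt-Tv, mt-Tk, mt-Tg, mt-Tr, mt-Th, mt-Tl2 and mt-Tt in 1 to 8. For mt-Tf and mt-Ts2, a count of 0 cells allows a share of up to 2.64%. A count of 0 also allows up to 3 reads among the 102662121 mitochondrial reads of all cells. These intervals cover counting error only, and amplified reads without molecular identifiers are not independent molecules. The strand of origin of these reads is not recorded, and whether they come from tRNAs, from precursors or from RNA of the opposite strand was not tested.

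**Figure D2:**
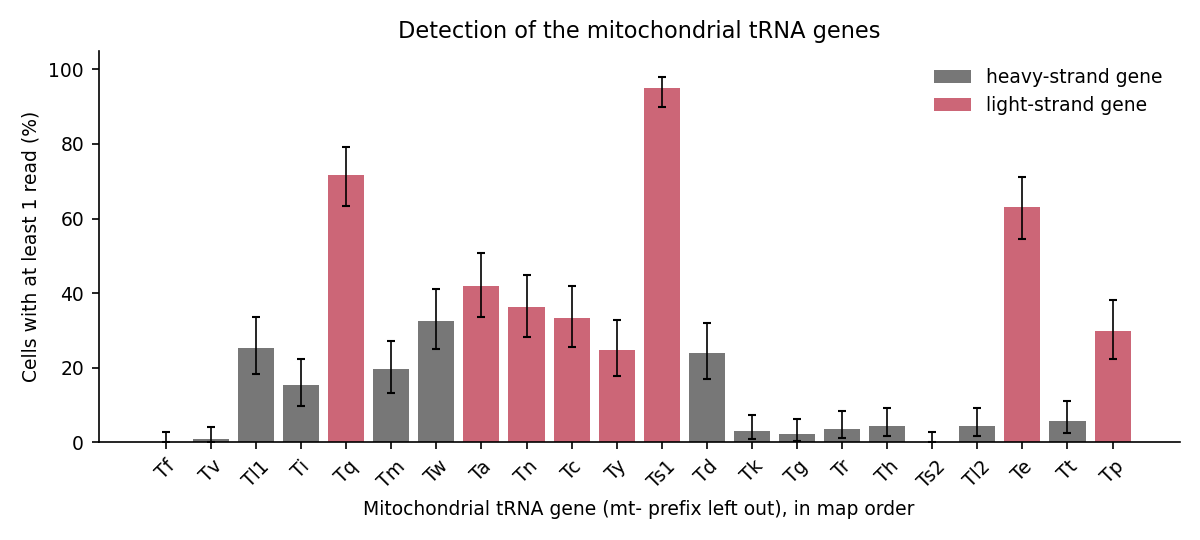
Percentage of cells with at least 1 read on each of the 22 mitochondrial tRNA genes in map order, coloured by coding strand; error bars are exact 95% binomial intervals. mt-Ts1, mt-Tq and mt-Te on the light strand are found in 94.9%, 71.7% and 63% of cells, and the most often detected heavy-strand gene, mt-Tw, in 32.6%.

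The cells were grouped into 3 clusters from nuclear genes alone, on 20 marker genes of germ cell and oocyte development, so that no mitochondrial gene took part. Cluster 1 had 20 cells, cluster 2 had 83 and cluster 3 had 35. Since the 20 genes made the clusters, their means only describe the order: the meiotic gene Sycp2 averaged 484 TPM, then 169 and 65.3 TPM from cluster 1 to cluster 3, the follicle transcription factor gene Figla 315, 1746 and 1166, and the zona pellucida gene Zp3 0.10, 14.1 and 531. The comparison of clusters asks whether mitochondrial RNA differed along the passage from meiotic germ cells to oocytes. A ratio of means of at least 1.5-fold was taken as a difference worth counting. The third run held 5 of 20, 17 of 83 and 15 of 35 cells of the clusters.

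Summed over the 13 protein genes, TPM was higher in the later clusters, but by little beside the spread between cells. Cluster 1 cells ran from 15379 through a median of 73289 to 102755 summed TPM, cluster 2 cells from 7411 through 86753 to 275581, and cluster 3 cells from 42586 through 85809 to 256143. All 3 clusters overlapped between 42586 and 102755, no cluster 1 cell lay above that stretch and no cluster 3 cell below it. The log2 ratio of means was 0.50 for cluster 2 over 1, 0.10 for cluster 3 over 2 and 0.61 for cluster 3 over 1. With medians in place of means, the last was 0.23, and the summed level followed the order of cells with a rho of only 0.15. With clusters made instead from the 2000 most variable nuclear genes, the ratios were -0.31, 0.61 and 0.29. Within the runs, cluster 3 over 1 was 0.94, 0.18 and 0.62.

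**Figure D3:**
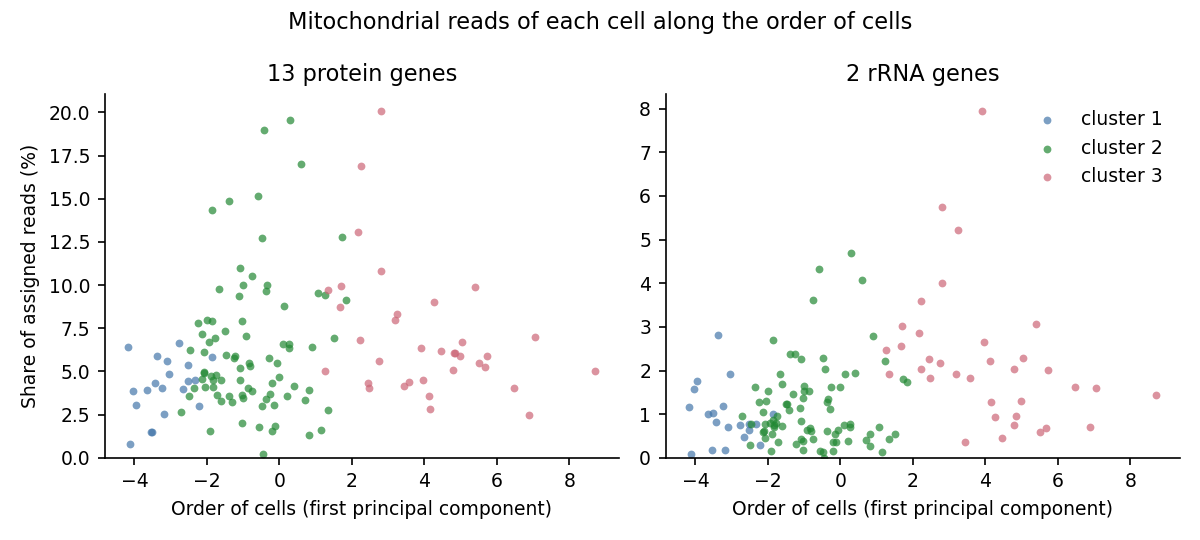
Percentage of assigned reads on the 13 protein genes (left) and the 2 rRNA genes (right) for each cell, against the order of cells given by the first principal component of the 20 nuclear marker genes, coloured by cluster. The highest protein-gene share of a cell in cluster 1 is 6.65%, against 19.6% in cluster 2 and 20.1% in cluster 3.

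The rRNAs were higher in cluster 3 than in the other clusters. The median summed rRNA TPM was 8040, 7841 and 15738 from cluster 1 to cluster 3, with ranges of 1008 to 25549, 36.4 to 34794 and 2385 to 60396. The log2 ratio of means was 0.15 for cluster 2 over 1, 0.81 for cluster 3 over 2 and 0.96 for cluster 3 over 1. Within the runs, cluster 3 over 2 was 0.66, 0.47 and 0.55, and cluster 3 over 1 was 0.93, 0.68 and 0.68. Without the third run, cluster 3 over 1 was 0.82. Per unit of protein-gene TPM, the median of mt-Rnr2 was 0.08, 0.07 and 0.13 from cluster 1 to cluster 3. This ratio moved more with the run, with medians of 0.06, 0.07 and 0.19 from the first to the third. Its log2 ratio of means for cluster 3 over 1 was 0.18, 0.49 and -0.04 within them, against 0.39 over all cells, so on this scale the third run gave no higher value in cluster 3 than in cluster 1. Whether the rRNAs and the protein genes differ between clusters at different points depends on the scale, since per spike-in TPM the protein genes too had the larger ratio between clusters 2 and 3 (1.12) and the smaller between 1 and 2 (0.19). Within the runs these were 1.05, 0.27 and 1.39 for the former and 0.09, 0.42 and 0.53 for the latter, so the second run did not share that order.

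Of the 37 genes, 28 had a mean of at least 1 TPM in cluster 1 or 3, and 20 of these were at least 1.5-fold higher in cluster 3 than in cluster 1. Over all 19608 genes tested the same way, 31.5% were at least 1.5-fold higher and 37.8% at least 1.5-fold lower. None of the 28 was at least 1.5-fold lower. With clusters from the 2000 most variable genes, 12 of 28 were higher, against 25% of all genes, and without the third run 19 of 26, against 31.9%. The count took in 7 of 13 protein genes and both rRNAs, all of which passed the filter in both clusters. The remaining 11 were tRNA genes, but 5 of the 13 tRNA genes counted (mt-Td, mt-Ti, mt-Tl1, mt-Tm and mt-Ty) reached 1 TPM only in cluster 3 and so could not be called lower, and 3 of these are among the 11. With the filter on the mean over all cells instead, 19 of 27 genes were higher, 10 of 12 tRNA genes among them, against 30.4% of all genes. The median log2 ratio was 0.71 for the protein genes and 0.93 for all 28, beside -0.15 over all genes. For cluster 2 over cluster 1, 11 of 27 genes were higher, 4 of them protein genes, and none was lower, where the shares over 19594 genes were 29.8% and 26.3%. Of these 11, the tRNA genes mt-Td, mt-Tm and mt-Ty reached 1 TPM only in cluster 2 and could not be called lower, and the 4 of 13 protein genes lie near the share over all genes. For cluster 3 over cluster 2, 13 of 28 were higher and none was lower, with shares of 21.5% and 31.8% over 19247 genes. Here mt-Ti reached 1 TPM only in cluster 3, and with the filter on the mean over all cells 12 of 27 were higher, against 18.4% of all genes. Only 2 protein genes, mt-Nd2 and mt-Nd6, were among those 13. The tRNA genes enter these counts with few reads each, so their ratios are rough.

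mt-Nd2, the complex I subunit ND2, had the largest ratio of any protein gene. Its TPM ran from 196 through a median of 766 to 2090 in cluster 1, from 141.2 through 1424 to 11344 in cluster 2 and from 773 through 3202 to 7038 in cluster 3. Most cluster 3 cells thus lay above the highest of cluster 1, while cluster 2 overlapped both. The mean was 1.06 log2 higher in cluster 2 than in cluster 1, 0.96 higher in cluster 3 than in cluster 2 and 2.01 higher in cluster 3 than in cluster 1. Leaving out any single cell kept the last value between 1.96 and 2.12. Within the runs it was 2.23, 1.87 and 1.87. Along the order of cells the rho of mt-Nd2 was 0.66, the highest of the 13.

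mt-Nd6 came next. It ran from 14.7 TPM through a median of 1398 to 3680 in cluster 1, from 1.27 through 1903 to 15383 in cluster 2 and from 752 through 4181 to 7762 in cluster 3. The median of cluster 3 lay above every cell of cluster 1. The log2 ratio was 0.70 for cluster 2 over 1, 0.88 for cluster 3 over 2 and 1.58 for cluster 3 over 1. Within the runs the last was 1.99, 1.12 and 1.48.

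By TPM, mt-Nd1 differed between clusters 1 and 2 instead. Its medians were 6239, 11100 and 11580 TPM in clusters 1, 2 and 3. Its log2 ratios were 0.97 for cluster 2 over 1, 0.04 for cluster 3 over 2 and 1.01 for cluster 3 over 1. The last ran from 0.44 to 1.67 over the alternative settings. Spike-in TPM itself had log2 ratios of 0.34 for cluster 2 over 1 and -0.89 for cluster 3 over 2, so the place of this step depends on the scale. Within the runs, cluster 2 over 1 was 1.16, 0.58 and 1.12. The other complex I genes had ratios of cluster 3 over 1 between 0.57 for mt-Nd4 and 0.91 for mt-Nd5. mt-Atp8 had 0.95, with values from 0.72 to 1.24 when single cells were left out, but this value rests on the first run: within the runs it was 2.73, 0.30 and -0.07.

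The complex III and IV genes had the smallest ratios. For cluster 3 over 1 the log2 ratio was 0.55 for mt-Co3, 0.52 for mt-Co2 and 0.49 for mt-Cytb, each under 1.5-fold. mt-Atp6, at 0.58, lay at the threshold itself, and leaving out single cells moved it between 0.51 and 0.62. mt-Co1 was the exception. It ran from 1627 TPM through a median of 11775 to 18542 in cluster 1, from 97.8 through 11731 to 35310 in cluster 2 and from 3138 through 8037 to 30175 in cluster 3. Its log2 ratio was -0.11 for cluster 3 over 1 and -0.34 for cluster 3 over 2. The former ran from -0.55 to 0.62 over the alternative settings, so no direction of its level can be given.

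The makeup of the mitochondrial messenger RNA pool also differed between the clusters. As a share of summed protein-gene TPM, mt-Nd2 had medians of 1.35%, 1.72% and 3.29% in clusters 1, 2 and 3, with ranges of 0.578% to 2.29%, 0.473% to 8.10% and 1.65% to 8.59%. mt-Nd6 had medians of 1.91%, 2.33% and 4.76%. mt-Co1 had medians of 16.3%, 13.6% and 9.68%, with ranges of 10.4% to 22.3%, 1.32% to 22.0% and 4.42% to 16.2%. Between clusters 1 and 3 the mean share was 1.5 log2 higher for mt-Nd2, 1.03 higher for mt-Nd6 and 0.75 lower for mt-Co1 (log2 ratio -0.75). Within the runs these ratios were 1.33, 1.81 and 1.21 for mt-Nd2, 1.20, 1.02 and 0.66 for mt-Nd6 and -0.70, -1.07 and -0.59 for mt-Co1, each in the direction found over all cells. mt-Atp6 hardly moved, with mean shares of 37.5%, 37.4% and 35.6%. Shares sum to the whole, so they are not independent of each other. Read depth moved little with these shares, with a rho of 0.14 for mt-Nd2, 0.22 for mt-Nd6 and -0.07 for mt-Co1.

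**Figure D4:**
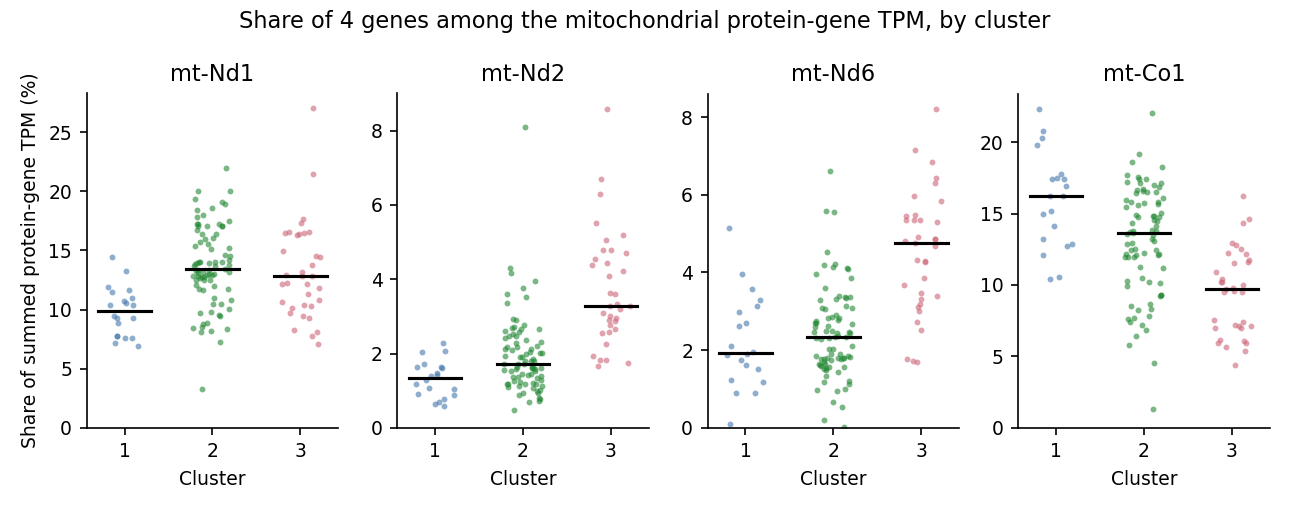
Share of the summed TPM of the 13 mitochondrial protein genes taken by mt-Nd1, mt-Nd2, mt-Nd6 and mt-Co1 in each cell of clusters 1 (20 cells), 2 (83) and 3 (35), with medians as bars. The medians of mt-Nd2 are 1.35%, 1.72% and 3.29%, and those of mt-Co1 16.3%, 13.6% and 9.68%.

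The tRNA reads were also higher in cluster 3. Summed over the 22 genes, the median cell had 11.5, 17 and 51 reads from cluster 1 to cluster 3, with ranges of 1 to 43, 0 to 176 and 9.81 to 223 reads. The log2 ratio of mean summed TPM was 1.32 for cluster 3 over 1, and 1.25, 1.03 and 1.25 within the runs, whose median cells had 11, 45.5 and 39 tRNA reads. For mt-Ts1, the medians were 10.5, 10 and 31 reads, and the log2 ratio of mean TPM was 0.84 for cluster 3 over 1. mt-Tq had means of 3.92, 13.7 and 23.9 TPM and a log2 ratio of 2.34. mt-Te had means of 2.73, 7.30 and 11.7 TPM with 1.76, and mt-Ta of 6.70, 7.59 and 21 TPM with 1.52. Over the alternative settings the ratio of mt-Te ran from 0.48, which is under 1.5-fold, to 3.29. mt-Tp had means of 1.08, 3.24 and 6.16 TPM, which rest on 41 cells with a read. The highest cell of cluster 2 had 118.5 TPM of mt-Tp. Leaving out single cells moved its log2 ratio of cluster 2 over 1 between 0.45 and 1.17. With the filter on the mean over all cells, under which 30.4% of all genes were higher, 8 of the 9 light-strand genes, mt-Nd6 included, were at least 1.5-fold higher in cluster 3 than in cluster 1, with a median log2 ratio of 1.59. Of the 18 heavy-strand genes that passed this filter, 11 were, with a median of 0.79. This difference between strands was not tested.

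Part of the sequence of the mitochondrial genome also exists in nuclear chromosomes, and reads from identical stretches cannot be assigned with certainty. Among the annotated transcripts, 17 nuclear copies matched 11 of the 37 genes in the same orientation. Each match covered at least 100 bases with at least 90% identity. Matches in the opposite orientation were left out, although the reads carry no strand. A block of 7 pseudogenes on chr1:24611535-24616197 (GRCm38, minus strand) copies mt-Co1 to mt-Nd4, and the deposited tables held 7 clone-based symbols, RP23-8J15.1 to RP23-8J15.7, with the same lengths. No table pairs those symbols with the pseudogenes, so the match rests on length alone. By that match, the copies of mt-Co2, mt-Atp6, mt-Co3, mt-Nd4l and mt-Nd4 are 100% identical to their genes over 294 to 876 aligned bases. Only 10 of the 17 copies, some of them outside this block, were matched to a symbol by length. The copies of mt-Cytb, mt-Nd5 and mt-Nd6 were not, so any reads on them are not counted.

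The copy of mt-Co1 took the most reads. It aligns to bases 1063 to 1545 of mt-Co1 with 1 mismatch, A1066T (counted from the first base of mt-Co1). The base that differs is in capitals in the first 61 aligned bases of both, at chrM:6390-6450 and, on the minus strand, chr1:24616128-24616188.
mt-Co1: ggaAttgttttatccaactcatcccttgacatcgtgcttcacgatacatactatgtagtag
Gm29216: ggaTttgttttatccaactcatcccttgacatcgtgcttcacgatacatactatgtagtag
RP23-8J15.1 was listed at a mean of 16248 TPM, above the 11877 TPM of mt-Co1 itself, and took 9.38% to 61.9% of the joint reads of both rows, with a median of 22.0%. Of the other symbols, RP23-8J15.6 took 19.6% of the joint reads with mt-Nd4l, RP23-8J15.7 12.2% with mt-Nd4, RP23-8J15.3 7.94% with mt-Atp6 and RP23-8J15.2 1.07% with mt-Co2. The copies matched to mt-Co3, mt-Nd3 and mt-Nd2 took less than 1%, and the copy of mt-Nd2 had a read in only 4 cells.

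The assignment between mt-Co1 and its copy was not the same in all clusters. RP23-8J15.1 took medians of 22.1%, 20.1% and 26.5% of the joint reads in clusters 1, 2 and 3. Counting both rows as one, the share among the reads of protein genes and copies had medians of 34.9%, 28.8% and 24.3%, and its mean was lower in cluster 3 than in cluster 1 by a log2 ratio of -0.52, against -0.65 for mt-Co1 alone among protein-gene reads. On the same footing mt-Nd2 stayed higher, at 1.60, and mt-Nd6 at 1.16, without the unmatched copy of mt-Nd6. As a level, mt-Co1 with its copies was 0.27 log2 higher in cluster 3 than in cluster 1 in reads scaled to the assigned total of the cell (CPM), and mt-Co1 alone 0.16 higher, so only the share of mt-Co1, and not its level, was lower on that scale.

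Across cells the mitochondrial genes varied together, with exceptions. The 78 pairs of protein genes had a median Spearman rho of 0.62, from 0.23 to 0.89. The closest pair was mt-Co3 with mt-Nd4, and the least close mt-Co1 with mt-Nd2. mt-Nd2 correlated best with mt-Nd6 (rho 0.74), which lies on the opposite strand and far along the map. mt-Nd6 itself had a slightly higher rho of 0.75 with mt-Nd5, the heavy-strand neighbour that overlaps its end. Of the 8 pairs below 0.4, 5 included mt-Atp8, whose median rho with the other 12 was 0.45 over all cells and 0.55, 0.61 and 0.56 within the runs. mt-Co1 and mt-Nd2 had 0.44 in the first run, -0.34 in the second and 0.08 in the third. mt-Cytb had a rho of 0.20 with mt-Rnr1 and 0.21 with mt-Rnr2, the lowest of any pair drawn, but with mt-Rnr2 it had 0.60, 0.21 and 0.63 within the runs. All of these genes share the fixed total to which TPM is scaled and the libraries of the cells, so the correlations are descriptions only.

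**Figure D5:**
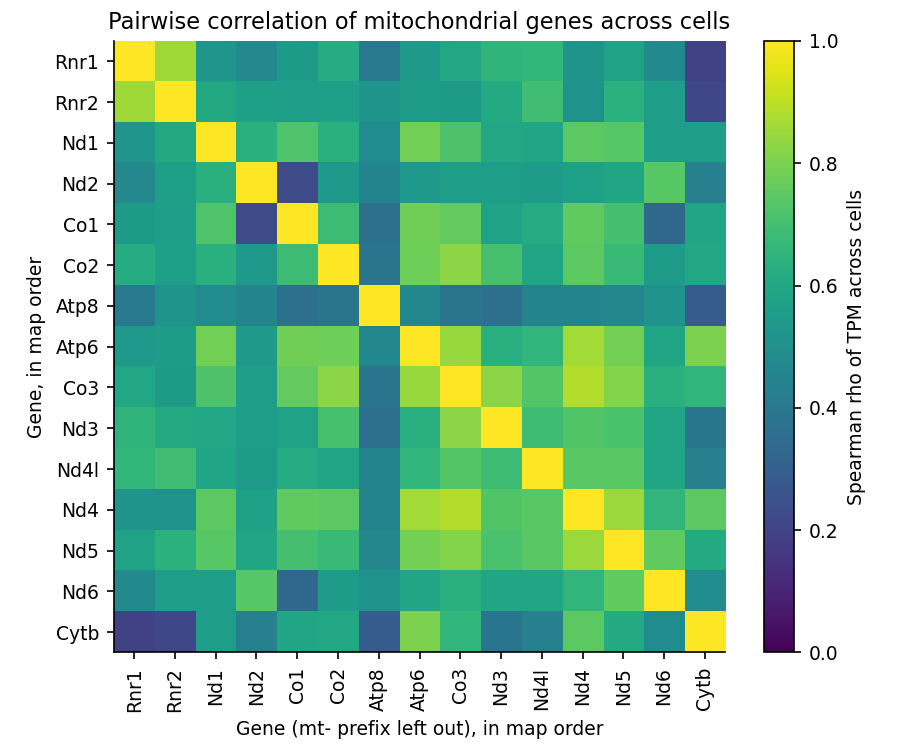
Spearman rho of TPM across cells for each pair of the 13 protein and 2 rRNA genes, in map order on both axes, from 0 (dark) to 1 (bright). The 2 rRNAs (0.86) and the genes from mt-Atp6 to mt-Nd5 form bright blocks, while mt-Co1 with mt-Nd2 (0.23), mt-Cytb with mt-Rnr1 (0.20) and the row of mt-Atp8 are dark.

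Outside the mitochondrial genome, 8723 genes with a mean of at least 10 TPM were compared with the summed protein-gene TPM. The closest was RP23-8J15.1 (rho 0.84), the symbol matched to the copy of mt-Co1. Then came Mir6240 (0.52), Lars2 (0.49), RP23-8J15.7 (0.49), matched to the copy of mt-Nd4, and the clone-based symbol RP23-81C12.3 (0.48). Lars2 encodes the mitochondrial leucyl-tRNA synthetase and had a mean of 151 TPM.

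The nuclear genes for the partner subunits were taken from lists of subunits of each complex. For cluster 3 over cluster 1, where the shares over all genes were 31.5% higher and 37.8% lower, 9 of 36 complex I genes were at least 1.5-fold higher and 5 lower, with a median log2 ratio of 0.26. For complex III these counts were 3 and 3 of 9, for complex IV 4 and 0 of 10, and for the ATP synthase 7 and 3 of 16, with medians of 0.34, 0.51 and 0.50. The largest ratio upward belonged in complex I to Ndufb2 (2.02), in complex III to Uqcrq (1.85), in complex IV to Cox8a (1.83) and in the ATP synthase list to Atpif1 (1.44), which encodes an inhibitor of the enzyme. The lowest were Ndufs1 (-1.25), Uqcrc1 (-1.11), Cox7b (-0.03) and Atp5f1 (-1.63). The counts for complex III lie near the shares over all genes. Complex I, complex III and the ATP synthase list held genes in both directions, while complex IV had none at least 1.5-fold lower. The medians lay above the -0.15 of all genes in all 4 lists.

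Most lists for the expression of the mitochondrial genome had medians below that of all genes. Their counts are for cluster 3 over cluster 1 and stand beside the same 31.5% higher and 37.8% lower over all genes. Both counts for the translation list and the lower count for transcription and replication lie near these shares. Of 17 genes for transcription and replication, 3 were at least 1.5-fold higher in cluster 3 than in cluster 1 and 6 lower. The median log2 ratio was -0.30. Among the 6, Mterf1b reached 1 TPM only in cluster 1 and so could not be called higher. With the filter on the mean over all cells, 3 of 16 were higher and 5 lower. Tfam, which packages and activates the mitochondrial genome, averaged 87.1, 163 and 128.3 TPM from cluster 1 to cluster 3, and the polymerase gene Polrmt 44.1, 36.9 and 40.5. The extremes were Mterf1a (1.32), which had 0.78 TPM in cluster 1 and 3.44 in cluster 3 and so passed the filter only through cluster 3, and Tfb2m (-1.19), a transcription factor of the promoters. Of 22 genes for RNA processing and decay, 4 were higher and 10 lower (median -0.41). Among the 10, Fastkd5 reached 1 TPM only in cluster 1 and so could not be called higher. With the filter on the mean over all cells, 4 of 22 were again higher and 10 lower. Hsd17b10, a subunit of the enzyme that cuts tRNAs out of the precursor, had the largest ratio of this list, with 17.8 TPM in cluster 1, 35.5 in cluster 2 and a log2 ratio of cluster 3 over 1 of 2.92, and Ptcd3 the lowest (-1.59). Of 22 genes for RNA modification, 2 were higher and 11 lower (median -0.59), from Mettl17 (2.16) to Mettl15 (-2.38). Of 23 genes for tRNA charging (19 synthetases, Mtfmt and the amidotransferase genes Gatb, Gatc and Qrsl1), 2 were higher and 12 lower (median -0.71), from Qrsl1 (1.43) to Gars (-1.86). Of 16 genes listed for translation, 5 were higher and 5 lower (median -0.35). The list also holds Cox14 and Coa3, which serve the assembly of complex IV. Gfm1, an elongation factor, was lowest (-1.46). Mss51 was highest, listed at 0 TPM in cluster 1 and at 3.49 in cluster 3, through which alone it passed the filter. The others higher were C1qbp (1.36), Coa3 (1.14), Taco1 (0.83) and Cox14 (0.70). No initiation, elongation, release or recycling factor was among the 5 higher genes. Of 8 regulators of mitochondrial biogenesis tested (median 0.04), none was higher and 1 lower, Gabpa (-0.65), and Pprc1 had the largest ratio (0.53).

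Depth and other RNA moved with the clusters in part. Median assigned reads were 9592896, 9269048 and 10736139 in clusters 1, 2 and 3, and the median number of genes with a read was 12496, 12207 and 14506. Spike-in RNA, added in equal amount to each cell, had a mean summed TPM of 11424, 14466 and 7825, lowest in cluster 3. The first run, which had the highest spike-in share, held 10 of 20, 54 of 83 and 11 of 35 cells of clusters 1, 2 and 3. Within the runs, the log2 ratio of spike-in TPM for cluster 3 over 1 was -0.11, -0.51 and -0.98. Per spike-in TPM, the log2 ratio of the protein genes for cluster 3 over 1 was 1.31 over all cells and 1.13, 0.69 and 1.92 within the runs, and that of the rRNAs 1.65 and then 1.16, 1.00 and 1.77. On this scale the median of all genes was 0.41. Germ cell markers were present in every cell, with a summed level of 1206 to 13442 TPM over 8 genes. The 8 pregranulosa markers had medians of 0.31, 0.43 and 0.84 TPM in clusters 1, 2 and 3 (highest cell 81.6), and the 7 stroma markers 4.74, 1.05 and 0.51 TPM (highest cell 879). The 8 blood and endothelial markers, mostly globins, had medians of 38.1, 70.8 and 34 TPM but reached 324973 TPM in 1 cell of cluster 1. Without the 28 cells with at least 1000 TPM of these markers, 21 of 28 mitochondrial genes and 33.3% of all genes were at least 1.5-fold higher in cluster 3 than in cluster 1, against 20 and 31.5% with them.

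One cell of cluster 2, replicate 17, stood apart in its mitochondrial RNA. It had 17440741 assigned reads but only 6499 genes with a read, where the lowest cell had 6450 and the median was 12625. It had 272 TPM of Ddx4 and 1263 TPM of Figla. Only 0.214% of its reads were mitochondrial, where the next lowest cell had 0.890%. mt-Atp6 was still at 5380 TPM, while mt-Co1 was at 97.8, mt-Cytb at 4.89, mt-Nd6 at 1.27, mt-Nd4 at 1.02 and mt-Rnr1 at 0.36 TPM, and no read was assigned to mt-Nd3, mt-Nd4l or any tRNA gene. mt-Atp6 thus made up 72.6% of its protein-gene TPM. In this cell RP23-8J15.1 took 61.9% of its joint reads with mt-Co1, the highest of any cell used. With both rows counted, mt-Co1 had 2535 reads per kb of its length, against 967 alone and 41626 for mt-Atp6. Some of the other copies took reads here too. RP23-8J15.7 had 32.3 reads beside 13.7 on mt-Nd4, RP23-8J15.6 had 11 beside 0 on mt-Nd4l, and RP23-8J15.2 had 517 beside 2051 on mt-Co2. With the copies counted, mt-Nd4 came to 33.4 and mt-Nd4l to 37.04 reads per kb, still far below mt-Atp6. Without this cell, the log2 ratio of the summed protein genes was 0.52 for cluster 2 over 1 and 0.09 for cluster 3 over 2, and the rho of mt-Cytb with mt-Rnr1 was 0.18.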

How the data were processed

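Single-cell cDNA was sequenced as paired-end 125-bp reads. Per the methods and the submitters' processing notes, the authors checked reads with FastQC and quantified them with Salmon against mm10 plus spike-in sequences. The release of the annotation is not given in the sources used here. The deposited table of each cell gave TPM, computed by the authors' Salmon run from effective lengths, and the estimated count of reads per gene (NumReads), which is not whole where reads fit several genes. The deposited effective length of a gene is its length corrected by Salmon for fragment size and sequence bias, and it is short for genes shorter than a fragment. The study's limits (more than 500000 reads, under 35% mitochondrial and under 4% spike-in reads) were checked on the files, and all cells lay within the limits, although the study reports leaving a few out; the difference was not resolved.

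In 7 pairs, tables were repeats of 1 cell (r of log2 reads at least 0.9). TPM and effective lengths of a pair were averaged and estimated counts summed. Runs of library number were set after seeing the data. The members were the 37 symbols starting with mt-, in cells with at least 1 TPM of Ddx4. Members, gene lists and settings were chosen with earlier results of these data known. Shares are estimated counts over all assigned counts without spike-ins. Clusters were rebuilt with Seurat 5.3.0 in R 4.3.3 from the TPM, in all 146 tables, of 22706 nuclear symbols on 20 feature genes (10 principal components, 20 neighbours, resolution 0.2) and numbered along the first component. They are not the study's own cluster assignments, which were not used. Ratios of means are log2, single genes with a pseudocount of 1 TPM. Genes averaging 1 TPM or more in one of the clusters compared were counted where the ratio reached 1.5-fold. With all cells as 1 sample there was no test and no p-value. Doublets were not called, since cells were picked singly. Named genes were all 37 members, the gene with the largest ratio in each direction per nuclear list and the 5 outside genes most like the summed protein genes. Tfam, Polrmt, Mterf1b, Fastkd5, C1qbp, Coa3, Taco1, Cox14 and the cluster genes were named after their values were seen. Shares of cells have exact 95% binomial intervals. Nuclear copies were found by BLAST among GENCODE M21 transcripts (GRCm38), in the same orientation only. The ratio script was tested on simulated data. The other steps ran under SciPy 1.17.1, NumPy 2.4.6, pandas 2.3.3 and Python 3.11.15.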

Additional observations from a re-analysis of the deposited data

Results flagged for a closer look

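The cell left out for its Ddx4 value of 0 (replicate 29) still held mitochondrial RNA, and is given because no comparison uses it. Its mitochondrial genes took 2.16% of 1408459 assigned reads. It had mt-Atp6 at 7125 TPM, mt-Co3 at 5569, mt-Rnr2 at 2915 and mt-Nd6 at 1492 TPM. Figla was listed at 0 and the meiotic gene Sycp3 at 0.66 TPM, while 12990 genes had at least 1 read. mt-Co1 was listed at 999 TPM, but RP23-8J15.1, the symbol matched to its nuclear copy, took 76.4% of the joint reads of both rows. With both counted, mt-Co1 had 6131 reads per kb of its length, between mt-Co3 (7427) and mt-Nd6 (1541).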

How the results depend on the processing

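The log2 ratio of the summed protein genes for cluster 2 over 1 (0.50) was 0.63 in CPM, 0.60 with TPM scaled to the nuclear genes and -0.31 where the 2000 most variable genes made the clusters. For cluster 3 over 2 (0.10) it was 1.12 per spike-in TPM, -0.016 with medians and 0.61 with the variable-gene clusters. For cluster 3 over 1 (0.61) it was 1.31 per spike-in TPM, 0.23 with medians, 0.29 with the variable-gene clusters and 0.54 to 0.65 when each cell was left out in turn. Per spike-in TPM the ratios of cluster 3 over 1 were 1.65 for the rRNAs and 1.96 for the tRNAs, the latter 1.25, 1.39 and 2.53 within the runs. The count of genes at least 1.5-fold higher (20 of 28, against 31.5% of all genes) was 12 with the variable-gene clusters (25% of all genes), 28 per spike-in TPM (47%) and 15 of 16 tested in CPM (35.1%). Per spike-in TPM the median log2 ratio of all genes was 0.41, so a count on that scale says less of these genes. With the cell without Ddx4 kept, 1 gene, mt-Tf, was at least 1.5-fold lower, where otherwise none was. The log2 ratio of cluster 3 over 1 stayed between 1.46 and 2.77 for mt-Nd2, 1.09 and 2.35 for mt-Nd6 and 0.85 and 1.70 for mt-Rnr2. For some other genes counted as higher, the lowest value was under 1.5-fold. It was 0.44 for mt-Nd1, 0.38 for mt-Nd5, 0.50 for mt-Atp8, 0.48 for mt-Nd3 and 0.37 for mt-Nd4l. Among the tRNA genes it was 0.48 for mt-Te and 0 for mt-Tp. The cause of these shifts was not tested. With repeat tables kept apart, or clusters made from the distinct cells, 20 genes were higher, and without the third run of libraries 19, as with the filter on the mean over all cells. These settings, leaving out the cell with the lowest share, leaving out cells rich in blood markers and leaving out each cell in turn were chosen after seeing the data. No paired analysis was possible because the labels give a single group. With 1 litter and no animal per cell, no spread between animals can be given, and read counts on most tRNA genes are too low for more than presence.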
